A study of Homo sapiens with 6 samples.

Results

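The miR-106b-25 cluster and the family of miRNAs with the miR-25 seed were followed from whole MIO-M1 cells (an established line of human Müller glia) into the extracellular vesicles (EV) that the cells release. The members were the 9 mature miRNAs named hsa-miR-106b-5p, hsa-miR-106b-3p, hsa-miR-93-5p, hsa-miR-25-3p, hsa-miR-25-5p, hsa-miR-92a-3p, hsa-miR-92b-3p, hsa-miR-32-5p and hsa-miR-363-3p, out of 2576 mature miRNAs listed in each table. They were taken by name, as products of the cluster or as relatives that carry the miR-25 seed, and the rule used no measured level. Small RNA libraries were made with the QIAseq miRNA kit from 3 samples of wild-type whole cells and 3 samples of secreted EV. Whole cell replicates 1, 2 and 3 were passages 22, 24 and 26, EV replicates 1, 2 and 3 were passages 23, 25 and 27, and no passage was shared between the groups. All samples came from 1 line, so a p-value measures only the spread between these passages. The cells were grown in DMEM with serum before the medium was replaced for EV collection, and the labels and the methods differ in that medium, in how often the cells were washed and in how long it was conditioned. RNA was isolated with the RNeasy kit from cells and with the Total Exosome RNA Isolation Kit from EV, and EV were treated with RNase A beforehand, so the kit, the RNase step and the sample source cannot be told apart. The tables hold miRNAs only, so markers of Müller glia among messenger RNAs were not available for a check of the label.

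miRNAs are short RNAs that guide a silencing complex to messenger RNAs, and the seed, bases 2 to 8 from the 5′ end, largely decides which targets are recognised. The 3 precursors of the miR-106b-25 cluster are made from the MCM7 gene, which encodes part of the replicative helicase, and the cluster is a paralog of the clusters that begin with miR-17 and miR-106a. These clusters are known for promoting cell cycle entry and for restraining p21 and the pro-apoptotic protein BIM. A precursor gives a 5p and a 3p arm, of which 1 usually accumulates.

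The mature sequences, credited to RefSeq (GRCh38.p14), were matched for all 9 members and are shown because the results turn on which members share a seed. In each, bases 2 to 8 are in capitals. The 5 members with the miR-25 seed were the following.
hsa-miR-25-3p: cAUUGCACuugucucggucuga
hsa-miR-92a-3p: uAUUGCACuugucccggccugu
hsa-miR-92b-3p: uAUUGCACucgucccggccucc
hsa-miR-32-5p: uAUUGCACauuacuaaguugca
hsa-miR-363-3p: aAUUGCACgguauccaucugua

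The cluster's other members carry different seeds, and hsa-miR-93-5p and hsa-miR-106b-5p share the seed of miR-17-5p.
hsa-miR-93-5p: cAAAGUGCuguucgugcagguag
hsa-miR-106b-5p: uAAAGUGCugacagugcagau
hsa-miR-106b-3p: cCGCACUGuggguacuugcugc
hsa-miR-25-5p: aGGCGGAGacuugggcaauug

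Beyond the seed the relatives are unequally alike. miR-92a-3p matched miR-92b-3p at 19 of 22 positions and miR-25-3p at 18 of 22, and miR-92b-3p matched miR-25-3p at 16 of 22. miR-363-3p matched miR-25-3p at 9 of 22 positions and miR-32-5p matched it at 13 of 22. miR-93-5p matched miR-106b-5p at 16 of the 21 positions compared. How the authors' counting treated reads that fit more than 1 of these sequences is not given in the sources used here.

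In GRCh38 the cluster spans 515 bases on the minus strand, chr7:100093560-100094074. MIR106B, MIR93 and MIR25 lie in introns of MCM7 in all 8 of the GENCODE transcripts of that gene that cover them, of which 4 are coding. MIR32, at chr9:109046229-109046298, lies in an intron of TMEM245. miR-92a-3p is encoded both by MIR92A1 at chr13:91351314-91351391 within MIR17HG and by MIR92A2 at chrX:134169538-134169612, and its count does not separate the 2 loci. MIR363, at chrX:134169378-134169452, lies in an exon of the same non-coding transcript as MIR92A2, and MIR92B, at chr1:155195177-155195272, lies in an exon of another.

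Each count is the number of reads assigned to 1 mature miRNA, and levels are given as CPM, the conventional scaling of a count to the library's total. The totals of whole cell libraries lay between 396025 and 3990900 counts and those of EV libraries between 1225541 and 3134561. A count of 0 allows a level of up to 3 counts of the total, between 0.752 and 7.58 CPM depending on the library. For the 26 member values of 2000 counts or more, the 95% Wilson interval reached at most 4.18% to either side, and this covers counting error only. CPM are shares of a sum, so a lower CPM cannot be told apart from a rise in other miRNAs, and the number of vesicles or cells behind a library was not measured.

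The members were unequal in level, and 4 of them held most of the counts. In whole cells miR-92a-3p, a product of both paralogous clusters, was the most abundant at 25686 ± 7061 CPM (SD, n = 3), the 10th most abundant of all miRNAs by mean CPM. miR-92b-3p at 13779 ± 5516 CPM and miR-25-3p at 12704 ± 2623 CPM followed, at ranks 18 and 20, and differed by less than their spread. miR-93-5p, at 7296 ± 1545 CPM, ranked 31, below miR-25-3p by more than the spread of either.

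In EV the order changed. miR-25-3p was the highest member at 7943 ± 1555 CPM (SD, n = 3, rank 25), with miR-93-5p next at 6078 ± 1897 CPM (rank 30). miR-92a-3p at 4797 ± 2162 CPM and miR-92b-3p at 4403 ± 2063 CPM came after them, at ranks 36 and 38. Neighbours in this order overlapped within their spread.

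**Figure D1:**
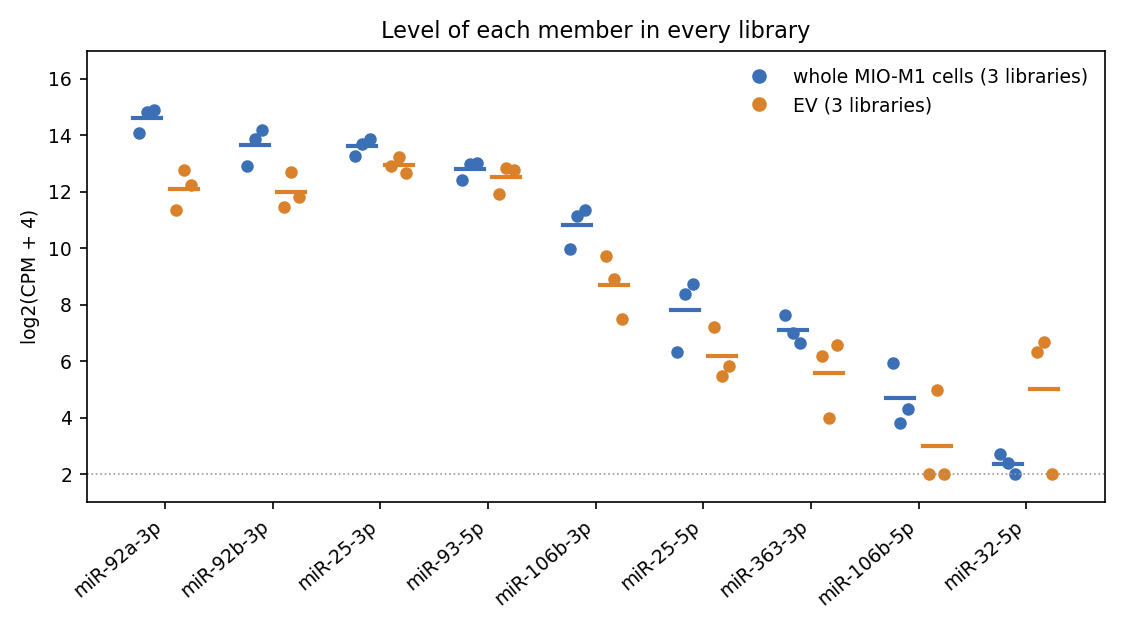
Level of the 9 members in every library, as log2(CPM + 4), with the members ordered by their mean CPM in whole cells. Points are libraries and short lines are the means of 3, and the dotted line at 2 is a count of 0. The EV points of miR-92a-3p, miR-92b-3p, miR-25-3p, miR-106b-3p and miR-363-3p lie below all those of whole cells, as did 27.9% of all miRNAs tested in CPM. Those of miR-93-5p and the remaining members overlap.

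The plot of levels shows 4 members between 11 and 15 on the log2 scale in every library, and points that scatter more widely at low counts. The comparison of EV with whole cells asks which miRNAs are more or less represented in what the cells release. Of the 9 members, 8 passed the filter (5 CPM or more in 3 or more of the 6 libraries), and miR-32-5p did not. Among the 430 miRNAs tested with edgeR's quasi-likelihood test, 14.0% were called lower in EV and 14.7% higher at a Benjamini-Hochberg adjusted p below 0.05. Of the 8 members tested, 2 were lower in EV and 0 were higher by that rule. All 8 had a log2 fold change below 0, beside 232 of the 430 miRNAs tested. The median of the 8 was -1.73, beside a median of -0.23 over all miRNAs tested. Members made from the same precursor or transcript are not independent of each other.

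miR-92a-3p was lower in EV. Its level was 17562, 29143 and 30353 CPM in whole cell replicates 1, 2 and 3 and 2620.1, 6943 and 4827 CPM in EV replicates 1, 2 and 3. The groups did not overlap, and the lowest whole cell library was above the highest EV library. The level in EV was 5.71-fold lower, a log2 fold change of -2.51 (SE 0.46, 95% interval -3.60 to -1.43), with a Benjamini-Hochberg adjusted p of 0.0107 in edgeR's quasi-likelihood test. The call was kept with each library left out in turn, with values between -2.92 and -2.36.

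miR-92b-3p, encoded at a locus of its own and close to miR-92a-3p in sequence, was also lower. It had 7769.7, 14957 and 18611 CPM in whole cells and 2858, 6746 and 3606 CPM in EV. The groups did not overlap, although whole cell replicate 1 was near EV replicate 2. The log2 fold change was -1.76 (SE 0.49, 95% interval -2.90 to -0.62), with an adjusted p of 0.0323 by edgeR's quasi-likelihood test. This call was kept under 9 of 14 alternatives, among them DESeq2 (adjusted p = 0.000446), but it depended on which libraries were included. It was lost without whole cell replicate 2 (adjusted p = 0.079), whole cell replicate 3 (0.0942), EV replicate 1 (0.0829) or EV replicate 3 (0.0765) in the same edgeR test, with values from -2.23 to -1.5 over all 6 such fits.

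GC content moved with these changes. Among the 390 tested miRNAs with a RefSeq sequence, the median log2 fold change was 1.19 in the 116 with a GC content below 45%, -0.38 in the 171 between 45 and 55%, and -1.27 in those at 55% or above. miR-92a-3p has a GC content of 54.5%, miR-92b-3p of 63.6% and miR-25-3p of 50.0%, beside a median of 50.0% over these 390. When each library's linear trend on GC content was removed, an alternative chosen after seeing the data, the log2 fold change of miR-92a-3p was -1.35 (edgeR adjusted p = 0.0806) and that of miR-92b-3p was 0.24 (0.726), so neither call remained and the direction of miR-92b-3p turned. In that fit the median of all miRNAs tested was 0.36. The trend was fitted with the difference between EV and whole cells still in the values. The fit therefore also takes out any part of that difference that follows GC content. Tested miRNAs without a sequence were given the mean GC content.

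**Figure D2:**
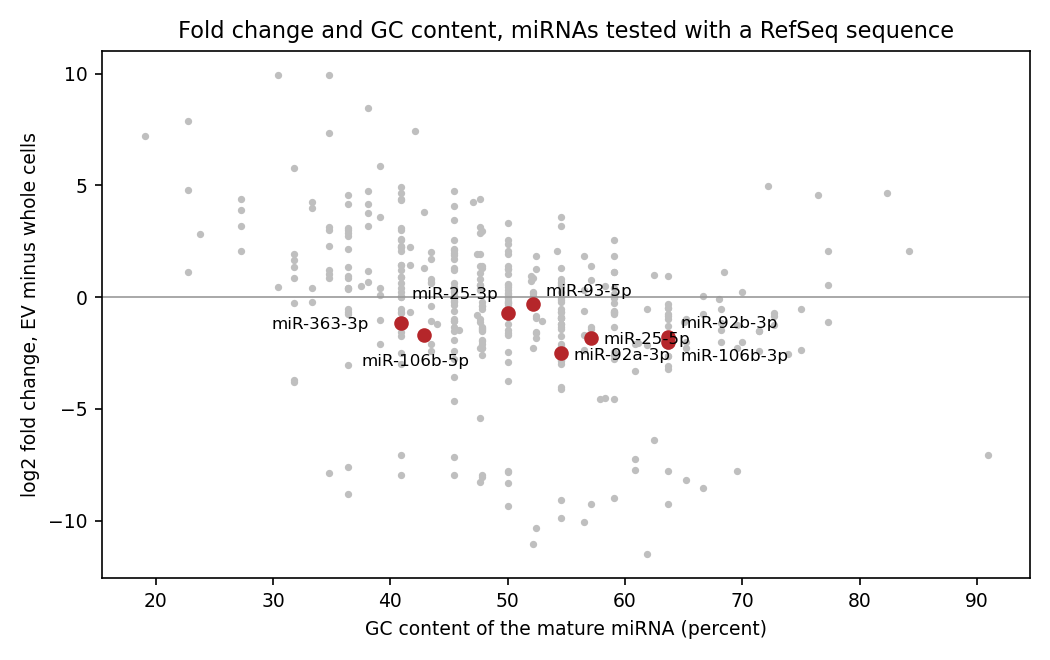
Log2 fold change of EV against whole cells (vertical axis) by GC content of the mature miRNA in percent (horizontal axis), for the 390 tested miRNAs with a RefSeq sequence. Grey points are miRNAs and the 8 tested members are in red and named. miR-92b-3p and miR-106b-3p, both at 63.6%, lie where most miRNAs are below 0.

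As the plot of fold change by GC content shows, the red points span 40.9 to 63.6% GC and all lie below the zero line. miR-25-3p is the cluster's member of the seed family. It was at 9792, 13438 and 14882 CPM in whole cells and at 7707, 9603 and 6519 CPM in EV. Every EV library was below every whole cell library in CPM, but the groups overlapped once libraries were scaled by edgeR's trimmed mean of M-values (TMM). The log2 fold change was -0.73 (SE 0.35, 95% interval -1.54 to 0.08) and did not pass the edgeR test (adjusted p = 0.184). It passed in DESeq2 (adjusted p = 0.0271, log2 fold change -0.91) and in edgeR without whole cell replicate 1 (0.0276, -1.10).

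miR-93-5p, made from the same cluster and bearing the miR-17 seed, had 5512, 8134 and 8240.3 CPM in whole cells and 3897, 7351 and 6986 CPM in EV. The groups overlapped, with only EV replicate 1 below the whole cell range. The log2 fold change was -0.32 (SE 0.38, 95% interval -1.21 to 0.57, edgeR adjusted p = 0.61), which leaves room for a fall of up to 1.21 on the log2 scale. With the GC trend removed it was 0.63 (adjusted p = 0.394).

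The cluster's other members were at lower levels. miR-106b-3p, the arm opposite miR-106b-5p, was at 1013, 2271 and 2605 CPM in whole cells and at 848, 477 and 179 CPM in EV. These values did not overlap in CPM but did on the TMM scale, where EV replicate 1 reached the range of whole cells. The log2 fold change was -2.01 (SE 0.69, 95% interval -3.64 to -0.39) and missed the threshold (edgeR adjusted p = 0.07). It passed under 8 of the 14 other settings, among them DESeq2 (adjusted p = 0.0051), and with the GC trend removed it was -0.21 (0.775).

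miR-25-5p had 75.8, 332 and 420.1 CPM in whole cells and 144, 40.7 and 53.6 CPM in EV. Whole cell replicate 1 was below EV replicate 1, so the groups overlapped. Its log2 fold change of -1.83 (SE 0.92) did not pass (edgeR adjusted p = 0.207). Of the 9 members it is the only one with the letters GGAG, which stand in its seed, and none holds CCCU or GGCU. All of these have been linked to sorting of miRNAs into vesicles, and they were found in 10.5%, 10.8% and 14.4% of the 390 sequences, searched on the mature strand alone.

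miR-106b-5p, usually the guide arm of its precursor, was close to the detection limit. It had 23, 40 and 20 counts in whole cells and 0, 56 and 0 counts in EV, or 58.1, 10.0 and 16.0 CPM against 0, 27.5 and 0 CPM. EV replicate 2 was inside the whole cell range, and the zeros of EV replicates 1 and 3 allow up to 2.45 and 0.957 CPM. Its log2 fold change was -1.70 with an SE of 2.02 (edgeR adjusted p = 0.607). Without EV replicate 2 it was -8.68 (edgeR adjusted p = 0.0255), but the EV libraries left had 0 counts. The miRNA was then in the test only through whole cells, so that call supports nothing further.

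miR-363-3p, processed from the miR-106a cluster transcript on chromosome X, had 194, 125 and 96.6 CPM in whole cells and 68.5, 11.8 and 90.6 CPM in EV. The groups did not overlap, but whole cell replicate 3 and EV replicate 3 were close. The log2 fold change was -1.13 (SE 0.93, edgeR adjusted p = 0.444). On the TMM scale 3 of the 8 members tested (miR-92a-3p, miR-92b-3p and miR-363-3p) had all EV libraries under all whole cell libraries and 0 had them all above, while 27.4% and 20.9% of all miRNAs tested did so. In CPM on the totals, miR-25-3p and miR-106b-3p joined these 3, beside 27.9% of all miRNAs below and 20.5% above.

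**Figure D3:**
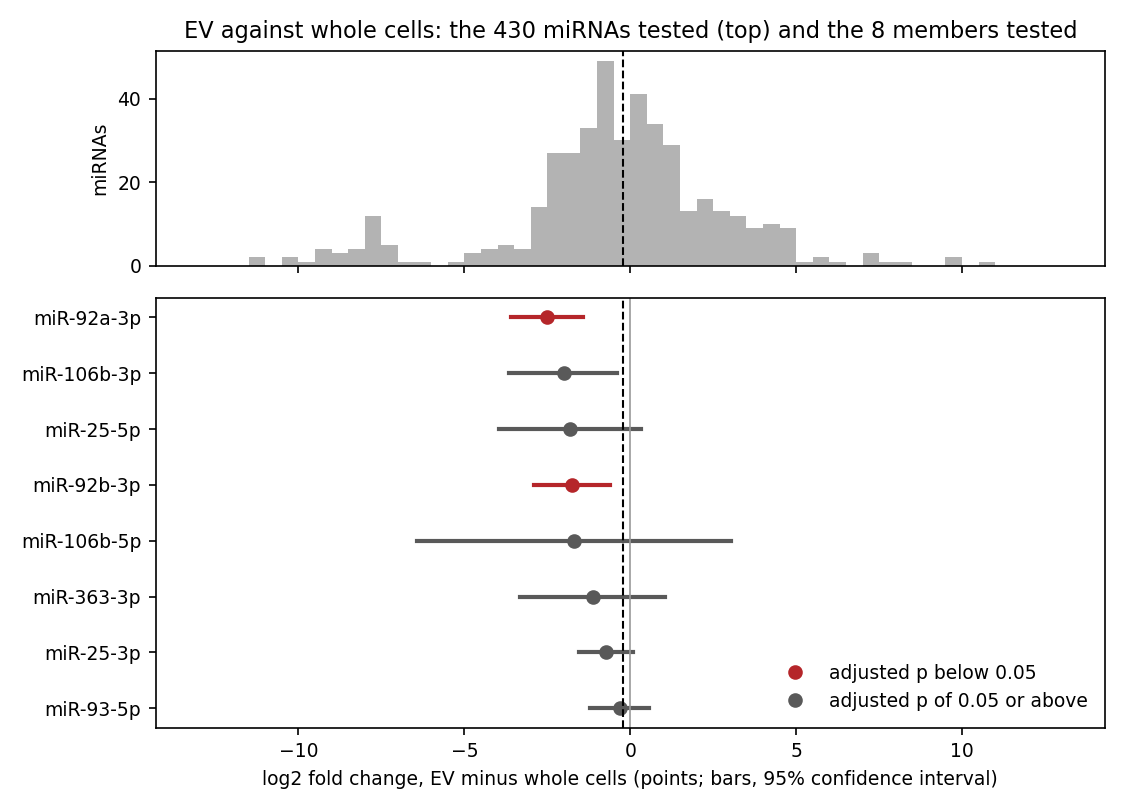
Log2 fold change of EV against whole cells. The top panel is a histogram of all 430 miRNAs tested, the lower panel shows the 8 tested members with 95% confidence intervals, and the dashed line is the median over all miRNAs, -0.23. miR-92a-3p and miR-92b-3p (red) passed an adjusted p of 0.05, and the interval of miR-106b-5p runs from -6.44 to 3.04.

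The plot of fold changes shows that the interval of miR-93-5p covers 0 and that of miR-92a-3p does not come near it. miR-32-5p, produced from the TMEM245 intron and the lowest member in cells, had 1, 5 and 0 counts in whole cells. It was at 76.7 and 99.6 CPM in EV replicates 1 and 2 and had 0 counts in EV replicate 3, which allows up to 0.957 CPM. EV replicates 1 and 2 were above all whole cell libraries and EV replicate 3 was not. With the filter lowered to 1 CPM in 3 libraries its log2 fold change was 5.38 (edgeR adjusted p = 0.163), and with no filter it was 5.35 (0.0403), the only setting under which a member passed as higher in EV.

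Summed over the members of a set, the seed family took 3.53, 5.77 and 6.39% of a whole cell library's total count and 1.33, 2.34 and 1.5% of an EV library's. Every EV library was below every whole cell library, at 1.73 ± 0.539% against 5.23 ± 1.5% (SD, n = 3). The 5 members made from the cluster took 1.65, 2.42 and 2.62% in whole cells and 1.26, 1.75 and 1.37% in EV. These overlapped, since EV replicate 2 was above whole cell replicate 1, and the means were 2.23 ± 0.513% and 1.46 ± 0.257%. With miR-93-3p, a product of the cluster that is no member, added, the means were 2.24% and 1.47%. miR-25-3p is counted in both sets.

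Within the seed family the makeup differed. miR-92a-3p made up 49.7, 50.5 and 47.5% of the family's counts in whole cells and 19.7, 29.7 and 32.1% in EV. miR-25-3p made up 27.7, 23.3 and 23.3% in whole cells and 57.8, 41.0 and 43.3% in EV. The share of miR-92a-3p was thus lower in EV and that of miR-25-3p higher, with no overlap between the groups. miR-92b-3p held 25.7 ± 3.56% in whole cells and 24.7 ± 3.75% in EV (SD, n = 3). These are shares of a fixed sum, so a fall in a member's share raises those of others. The mean CPM of miR-25-3p was itself 12704 in whole cells and 7943 in EV.

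**Figure D4:**
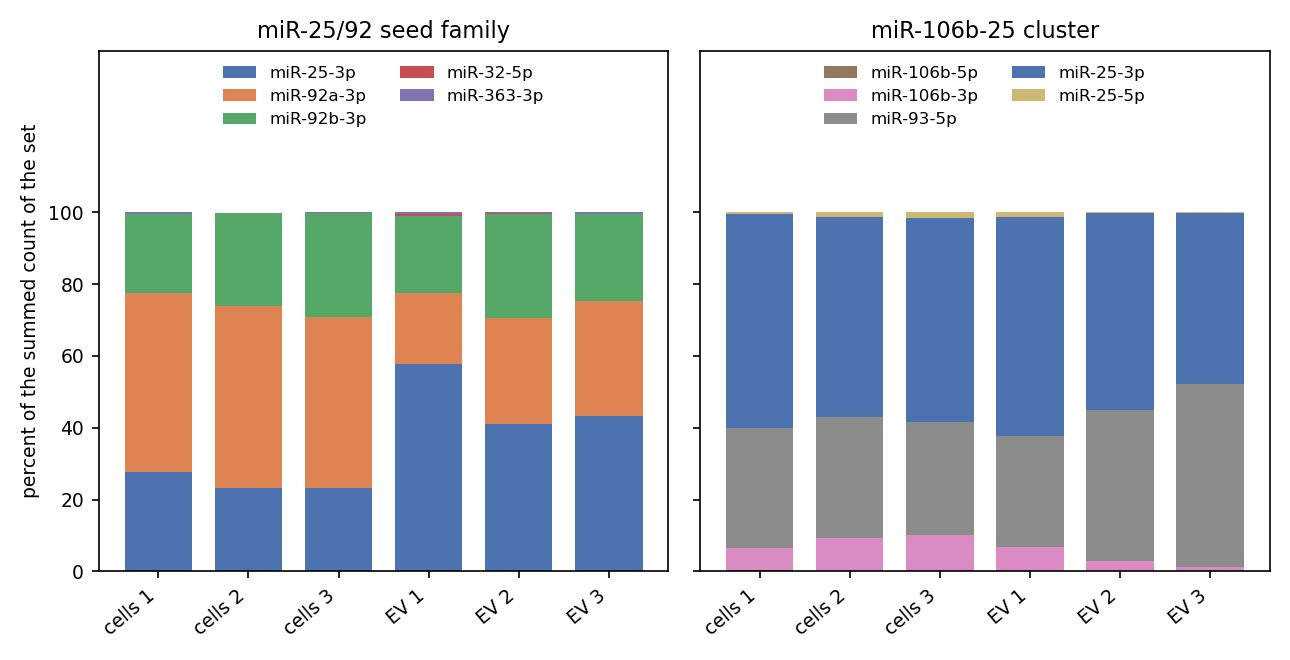
Share of each member in the summed count of the seed family (left) and of the cluster (right), in percent, for each whole cell and EV library, with bars stacked from 0. On the left the share of miR-25-3p is 23.3 to 27.7% in whole cells and 41.0 to 57.8% in EV, and on the right miR-25-3p and miR-93-5p fill most of every bar.

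The plot of makeup shows less change within the cluster. There miR-25-3p made up 57.3 ± 2.02% of whole cell counts and 54.5 ± 6.87% in EV, and miR-93-5p 32.9 ± 1.20% and 41.3 ± 9.98% (SD, n = 3). The miR-93-5p share was 30.9, 42.0 and 50.9% in EV replicates 1, 2 and 3, so EV replicate 1 lay below the whole cell range of 31.5 to 33.6% and the others above it. miR-106b-3p made up 6.16, 9.39 and 9.96% in whole cells and 6.73, 2.72 and 1.31% in EV, where EV replicate 1 was again inside the range of whole cells. Levels of different miRNAs were set side by side as CPM, for lengths of 21 to 23 bases, and how well the kit captures each sequence was not measured.

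Ratios of members within a library do not depend on how libraries are scaled. For each 100 counts of miR-25-3p there were 179, 217 and 204 counts of miR-92a-3p in whole cells and 34.0, 72.3 and 74.0 in EV. The groups were far apart, and the log2 ratio was lower in EV by a mean of 1.82 (1.00 ± 0.14 in whole cells, -0.82 ± 0.64 in EV, SD, n = 3). A two-sided exact permutation test gave p = 0.1, the smallest that 3 libraries against 3 allow, and 0.3 after Benjamini-Hochberg adjustment over the 9 ratios tested, so no ratio could pass 0.05.

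For each 100 counts of miR-25-3p, miR-92b-3p had 79.3, 111 and 125 counts in whole cells and 37.1, 70.3 and 55.3 in EV, a log2 ratio of 0.05 ± 0.34 against -0.93 ± 0.47. For each 100 counts of miR-92a-3p, it had 44.2, 51.3 and 61.3 in whole cells and 109, 97.2 and 74.7 in EV, a log2 ratio higher in EV by 0.84. Both ratios also had groups that did not overlap and an exact permutation p of 0.1 (adjusted 0.3). None of these 3 ratios between members with 1 seed changed sign under the 8 alternatives run for each, which did not include GC content. In the fit with the GC trend removed the log2 fold changes were -1.35 for miR-92a-3p, 0.24 for miR-92b-3p and -0.10 for miR-25-3p, so miR-92b-3p then stood above miR-25-3p and not below it.

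Members that share a transcript gave overlapping groups. miR-93-5p had 56.3, 60.5 and 55.4 counts for each 100 of miR-25-3p in whole cells and 50.6, 76.6 and 107 in EV, with a difference of 0.38 in the log2 ratio (exact permutation p = 0.4, adjusted 0.4). The spread was wider in EV, with an SD of 0.54 against 0.07 (n = 3). The 2 arms of MIR25 overlapped as well, with 0.774, 2.47 and 2.82 counts of miR-25-5p for each 100 of miR-25-3p in whole cells and 1.86, 0.424 and 0.822 in EV (exact permutation p = 0.3, adjusted 0.4).

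In the MIR106B precursor the 3p arm outnumbered the 5p arm in every library. miR-106b-3p had 401, 9063 and 3262 counts in whole cells and 1039, 972 and 562 in EV, beside the 20 to 40 and 0 to 56 counts of miR-106b-5p given above. The log2 ratio of the 3p arm to the 5p arm was 4.09, 7.81 and 7.31 in whole cells and 11.02, 4.11 and 10.14 in EV, with 0.5 added to each count (exact permutation p = 0.4, adjusted 0.4). The values 11.02 and 10.14 rest on 0 counts of miR-106b-5p, so the 0.5 added and the depth set them. The mean difference of 2.02 was 1.37 with 1 added and 0.4 with libraries thinned to the smallest total. The same zeros enter the ratios of miR-106b-5p to miR-25-3p and to miR-93-5p, which had an exact permutation p of 0.3 each (adjusted 0.4). The ratio of miR-32-5p to miR-25-3p also holds zeros and had 0.4 (adjusted 0.4).

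**Figure D5:**
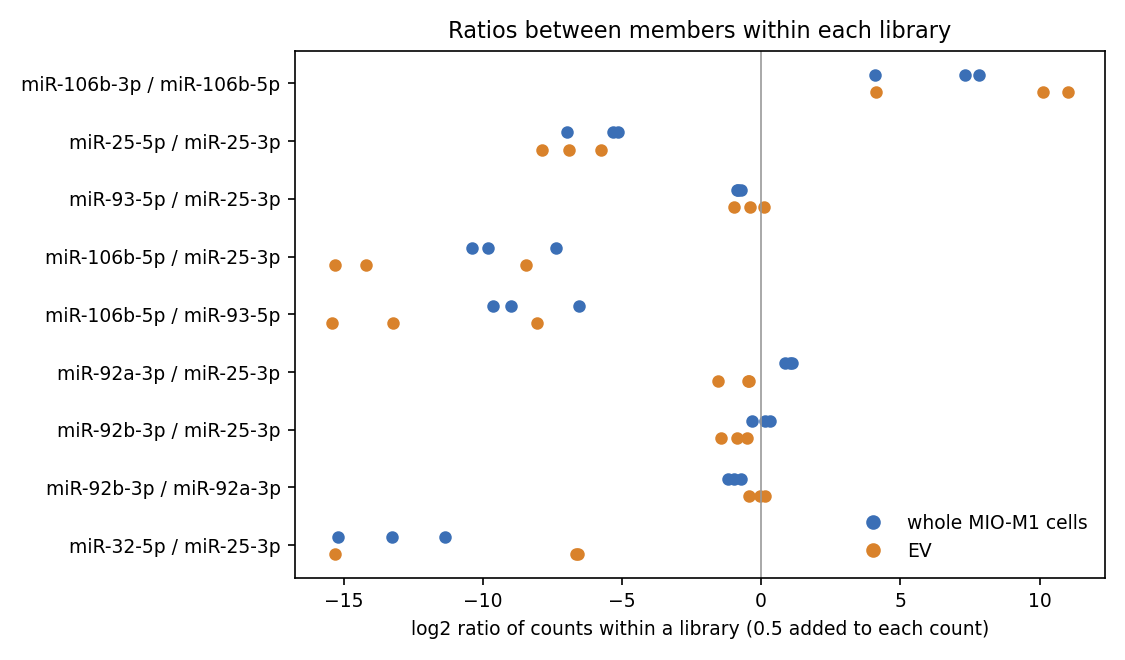
Log2 ratio of counts between pairs of members within each library (horizontal axis, with 0.5 added to each count), for whole cells (blue) and EV (orange), 3 libraries each. The miR-92a-3p over miR-25-3p points lie between 0.84 and 1.12 in whole cells and between -1.56 and -0.43 in EV, and the ratios with miR-106b-5p or miR-32-5p scatter over several log2 units.

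The plot of ratios shows tight whole cell values for pairs of abundant members and wide scatter for pairs with a member near 0 counts. The other arms of the members' precursors were mostly scarce. Of the 6, 2 passed the filter and 0 were called, beside 14.0% called lower and 14.7% higher of all miRNAs tested. miR-92b-5p, the arm opposite miR-92b-3p, was at 136, 1276 and 1901 CPM in whole cells and at 533, 423 and 1173 CPM in EV, and its log2 fold change was -0.70 (SE 0.93), with an adjusted p of 0.643 in edgeR. For miR-93-3p the log2 fold change was -0.69 (SE 1.68), with an adjusted p of 0.805 in edgeR, and its level in EV was 144, 50.5 and 0 CPM. The remaining 4 arms had means of at most 3.96 CPM in whole cells and 0 counts in all EV libraries, and miR-367-3p, the seed relative that is no member, had 0 counts in all 6 libraries.

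The miR-17 seed that miR-93-5p and miR-106b-5p carry is also found in 4 miRNAs of the paralogous clusters. Of these, 3 passed the filter and 0 were called, beside 14.0% called lower and 14.7% higher of all miRNAs tested. With so few tested, 0 calls does not set them apart. miR-17-5p was at 124, 21.8 and 22.4 CPM in whole cells and at 84.0, 104 and 173 CPM in EV (log2 fold change 1.30, SE 0.92, edgeR adjusted p = 0.372). miR-20a-5p had a log2 fold change of -1.03 (SE 1.43) and miR-20b-5p of -1.94 (SE 1.70). Together these 4 took 0.036 ± 0.025% of the counts of whole cells and 0.0268 ± 0.0158% in EV (SD, n = 3), well under the level of miR-93-5p alone.

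The paralogous clusters, which give rise to miR-92a-3p and miR-363-3p, hold 13 further mature miRNAs, and 6 of them passed the filter with 1 called lower and 2 higher, beside 14.0% and 14.7% of all miRNAs tested. miR-19b-3p was at 40.4, 10.3 and 3.99 CPM in whole cells and at 122, 375 and 110.1 CPM in EV, and its log2 fold change was 3.58 (SE 1.02), with an adjusted p of 0.0377 in edgeR. The groups did not overlap, and the miRNA moved in the direction opposite to miR-92a-3p, which is made from the same transcripts. The call did not hold under 7 of 14 alternatives, where the adjusted p reached 0.148 (edgeR, without whole cell replicate 2), 0.124 without whole cell replicate 3 and 0.12 without EV replicate 2, with values from 2.78 to 4.49 and no change of sign. miR-19a-3p, with the same seed, was at 0, 0.501 and 0 CPM in whole cells and at 40.8, 129 and 16.0 CPM in EV (edgeR adjusted p = 0.0144, and 0.0837 or 0.0827 without whole cell replicate 2 or 3). miR-18a-3p was at 65.7, 58.9 and 75.9 CPM in whole cells and had 0 counts in all 3 EV libraries (edgeR adjusted p = 0.0112). miR-19a-3p passed the filter only through EV and miR-18a-3p only through whole cells, so these 2 had to differ and their calls support nothing further. With the GC trend removed miR-19b-3p was still called higher, at a log2 fold change of 3.29 (edgeR adjusted p = 0.0328).

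The miRNAs nearest to 3 of the members were sought among those that passed the filter and were not members themselves. Nearest were those with the smallest root mean square difference of centred log2(CPM + 4) over the 6 libraries. The CPM in this distance were scaled by TMM, while the CPM printed below are on the library totals. For miR-92a-3p the nearest was miR-107, at 0.283, beside a median of 1.49 over all others. miR-107 was at 354, 408 and 347 CPM in whole cells and at 38.4, 107 and 93.2 CPM in EV (log2 fold change -2.26, SE 0.56, edgeR adjusted p = 0.0199). The call was lost, at log2 fold changes of -2.13, -2.33 and -1.73, without whole cell replicate 2 (edgeR adjusted p = 0.137), without whole cell replicate 3 (0.0758) and with the GC trend removed (0.0806). The next were miR-6511b-3p at 0.327 and miR-296-5p at 0.348, which both had 0 counts in all EV libraries and at most 30.1 CPM in whole cells. At such low levels the 4 CPM added before taking the log sets much of the distance, so these 2 cannot be said to have changed by as much as miR-92a-3p did.

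For miR-25-3p the nearest were miR-320d at 0.231, miR-323a-3p at 0.324 and miR-361-3p at 0.334, beside a median of 1.16. For miR-93-5p they were miR-361-3p at 0.166, miR-584-5p at 0.178 and miR-1185-2-3p at 0.195, beside a median of 1.21. None of these 5 passed the edgeR test, with adjusted p-values from 0.0645 to 0.888. The likeness is over 6 libraries and was not tested.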

How the data were processed

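The authors trimmed adapters, aligned reads to miRBase and deposited raw counts of reads per mature miRNA for each library. The deposited headers name miRBase release 20, Bowtie 1 and featureCounts 1.5.0-p1 (strand setting 1), the methods name Bowtie2, and no genome build is named, so coordinates are from RefSeq. No step that collapses copies of a molecule is named. Samples were grouped by their labels. miRNAs at 5 CPM or more in 3 or more of 6 libraries were tested with edgeR 4.0.16 (TMM, quasi-likelihood test, R 4.3.3), called at a Benjamini-Hochberg adjusted p below 0.05, with DESeq2 1.42.0 as an alternative. Ratios with 0.5 added to each count were tested with exact permutation tests (SciPy 1.17.1). All 9 members were named, with lists fixed by seed, precursor or cluster and the 3 nearest miRNAs of miR-25-3p, miR-93-5p and miR-92a-3p. Members and lists were chosen with earlier results of these data known. Alternatives covered the tool, normalization, filter, call rule, depth, denominator, pseudocount and each library left out, and GC content was added after seeing the data. The coordinates of the deposited tables and their other columns were not used. Host transcripts are those of GENCODE 29. Plots were drawn with matplotlib 3.10.9.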

Additional observations from a re-analysis of the deposited data

How the results depend on the processing

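The count of members called lower in EV was 2 of the 8 tested, where 14.0% of all 430 miRNAs tested were called lower. It stayed at 2 with library totals only. It was 3 with other edgeR scaling factors (RLE or upper-quartile), with no filter, with a filter of 1 CPM in 3 libraries and with libraries thinned to the smallest total. It was 4 with DESeq2, 1 when the log2 fold change also had to be 2.5 or more in size at an adjusted p below 0.05, 0 at an adjusted p below 0.01 with that fold change, 0 with the GC trend removed (chosen after seeing the data), and 1 to 4 with each library left out. It was 4 without whole cell replicate 1 and 1 without whole cell replicate 2, whole cell replicate 3 or EV replicate 3. Without EV replicate 2 it was 3, with miR-106b-5p among them through 0 counts in the EV libraries left. The share of all miRNAs called was worked out for the main fit alone, so the counts under other settings cannot be weighed against theirs. No member was called higher except 1 (miR-32-5p) with no filter, where the median log2 fold change of the 1188 miRNAs tested was -2.41. With the GC trend removed, miR-92b-3p turned to 0.24 and miR-93-5p to 0.63 on the log2 scale. The median of all miRNAs tested was 0.36 in that fit, so miR-92b-3p was still below it. Over all miRNAs tested the median was -0.41 with DESeq2 and -0.23 in the main edgeR fit. The other alternatives turned no member's direction. The seed family's and the cluster's shares moved by less than 1 SD under every alternative run. Of the 9 pairs of a member with a nearest miRNA, 7 were also found when 1 was added to the TMM-scaled CPM in place of 4. No fit with paired samples was run, since the labels pair no samples and the passages of the groups were adjacent but not shared.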
